A study of Mus musculus with 5 samples.

Results

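The 10 genes described here encode the 4 pore-forming subunits of the AMPA receptor (Gria1 to Gria4) and 6 of its auxiliary proteins: the transmembrane AMPA receptor regulatory proteins, or TARPs, γ-2, γ-3, γ-4 and γ-8 (Cacng2, Cacng3, Cacng4 and Cacng8) and the cornichon homologues 2 and 3 (Cnih2 and Cnih3). They were chosen by gene symbol, and all 10 were found among the 55385 genes counted and passed the expression filter. The data were read counts per gene from total RNA of dissected hippocampi of male C57/bl6 mice of 3 months. The untreated control was 1 library. Kainic acid (20 mg/kg, intraperitoneal), an agonist of glutamate receptors that provokes seizures, had been given to the mice of the other 4 libraries, of which 1 was taken 1 h after seizure onset, 2 at 4 h (replicate 1 and replicate 2) and 1 at 8 h. It is not stated in the sources whether 1 mouse or several gave the RNA of a library, so p-values measure only the spread between these libraries, which may be technical, and that spread is known only at 4 h. The title of the control calls it untreated, while the protocol also mentions vehicle injections without tying them to a library, so injection and kainic acid cannot be told apart.

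AMPA receptors are tetramers of the GluA1 to GluA4 subunits and carry most of the fast excitatory transmission in the brain. GluA2 makes the channel almost impermeable to calcium once its transcript has been edited by an adenosine deaminase, so the proportion of GluA2 to the other subunits sets much of the channel's behaviour. TARPs and cornichons are small membrane proteins that accompany the receptor out of the endoplasmic reticulum, hold it at synapses and slow its gating, and γ-8 is known as the main TARP of the hippocampus.

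The edited position, known as the Q/R site, lies in the pore loop. The coding sequences of the 4 subunits around it were read from the transcripts of GENCODE release M21 (GRCm38) and are shown because this codon is where GluA2 transcripts come to differ from those of the other subunits. Each is a run of 45 bases within a single exon, with the Q/R codon in capitals. The windows lie at chr11:57243073-57243117 on the plus strand for Gria1, chr3:80706890-80706934 on the minus strand for Gria2, chrX:41610244-41610288 on the plus strand for Gria3 and chr9:4464116-4464160 on the minus strand for Gria4.
Gria1: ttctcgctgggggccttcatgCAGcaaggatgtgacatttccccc
Gria2: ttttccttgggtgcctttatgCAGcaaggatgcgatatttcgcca
Gria3: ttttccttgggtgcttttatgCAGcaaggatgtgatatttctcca
Gria4: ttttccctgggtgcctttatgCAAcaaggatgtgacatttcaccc
The genome encodes glutamine in all 4, as CAG in Gria1, Gria2 and Gria3 and as CAA in Gria4. Against Gria2 the window differed at 9 bases in Gria1, 3 in Gria3 and 6 in Gria4. Counts per gene do not resolve this site, nor the flip and flop exons or other splice forms, so neither editing nor isoforms were measured here. The longest exact run shared by the transcripts of any 2 of the 10 genes was 59 bases, between Gria3 and Gria4.

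The genes lie on 8 chromosomes of GRCm38. Gria1 (ENSMUSG00000020524.16) spans chr11:57011387-57330244 on the plus strand, Gria2 (ENSMUSG00000033981.14) chr3:80681450-80802835 on the minus strand, Gria3 (ENSMUSG00000001986.16) chrX:41400854-41678601 on the plus strand and Gria4 (ENSMUSG00000025892.16) chr9:4417896-4796234 on the minus strand. Of the TARPs, Cacng2 (ENSMUSG00000019146.2) lies at chr15:77991748-78120028 and Cacng4 (ENSMUSG00000020723.3) at chr11:107732357-107794557, both on the minus strand. Cacng3 (ENSMUSG00000066189.9) lies at chr7:122670492-122769393 and Cacng8 (ENSMUSG00000053395.15) at chr7:3390683-3415648, both on the plus strand. Cnih2 (ENSMUSG00000024873.7) spans chr19:5092868-5098521 on the minus strand and Cnih3 (ENSMUSG00000026514.14) chr1:181352628-181460641 on the plus strand. Exons of other genes on the same strand covered at most 3.88% of the exon length, in Cacng8. Exons on the opposite strand covered 5.86% of Cacng2 and 1.02% of Cnih2, and none of the other 8 genes, and since the strand setting of the counting is unknown, such reads cannot be assigned with certainty.

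Counts on genes numbered between 16612225 and 19109204 per library. They were scaled to a common total by the TMM method and are given as normalized CPM, with exact 95% intervals that cover counting error only. Among genes known to respond to neuronal activity, Fos had 10.8 normalized CPM in the control, 999 after 1 h, 519 and 70.4 in replicates 1 and 2 after 4 h and 17.2 after 8 h. All 5 genes of this kind examined (Fos, Arc, Npas4, Egr1 and Bdnf) were more than 1.5-fold above the control at 1 h and in replicate 1 at 4 h, but Npas4 had 130 normalized CPM in replicate 1 and 4.92 in replicate 2 against 3.92 in the control, and Egr1 had 99.1 and 30.9 against 29.1. After 8 h Arc had 152 against 148 in the control, Npas4 5.13 and Egr1 19.1, while Bdnf had 96.7 against 43.6 in the control. Markers of hippocampal neurons were present in every library, with 2184 to 2539 summed normalized CPM for 8 markers of CA pyramidal neurons and 279 to 372 for 5 of dentate granule neurons. Camk2a alone gave 1436 of the 2539 in the control, and single CA markers differed more than the sum, with Neurod6 at 0.422 and 0.465, Fibcd1 at 0.523 and 0.698 and Nectin3 at 3.96 and 1.39 times the control at 4 h. The dentate sum joined markers that differed from the control in opposite directions at 4 h, with Dsp at 4.34 and 13.6 against 72.2, C1ql2 at 11.0 and 11.7 against 29.3 and Prox1 at 172 and 120 against 60.0 normalized CPM. The libraries at 4 h differed from each other by more than counting noise, with a chi-square of 34.7 per degree of freedom over 18187 genes. Replicate 1 at 4 h stood apart from the other libraries in tissue markers too. There all 5 markers of the choroid plexus, a secretory tissue that lies against the hippocampus, summed to 27.3 normalized CPM, against 3946 in the control, 1668 after 1 h, 4194 in replicate 2 and 3043 at 8 h. The defining markers Ttr, Folr1 and Kcnj13 had 16.3, 0.416 and 0.356 normalized CPM in it. Markers of striatum and thalamus summed to 236 in replicate 1, of which Prkcd gave 199, against 39.4 in the control, 102 in replicate 2 and 40.6 at 8 h. All 5 of these markers were above the control in both 4 h libraries, at 7.37 and 2.92 times for Prkcd, 4.91 and 1.57 for Tcf7l2, 2.77 and 2.08 for Drd1, 1.97 and 2.46 for Adora2a and 1.18 and 1.09 for Drd2, the last 2 at or below 1.90 normalized CPM. The 6 interneuron markers summed to 843 in replicate 1, 694 in replicate 2 and 512 in the control, mainly through Gad1 (515, 379 and 256) and Gad2 (150, 155 and 103). In replicate 1 the other 4 stood at 0.892 (Slc32a1), 1.08 (Pvalb), 1.26 (Vip) and 1.27 (Sst) times the control. Astrocyte markers summed to 1088 and 967 in the 4 h libraries and 608 in the control, mainly through Gfap (596, 510 and 221). At 4 h Aqp4 was at 1.60 and 1.33, Aldh1l1 at 1.44 and 1.31 and Gja1 at 0.998 and 1.04 times the control. At 8 h Gja1 was at 0.507 times the control. The sums of microglial, endothelial and oligodendrocyte markers differed by 1.58, 1.68 and 1.52 times between their highest and lowest library. In replicates 1 and 2 at 4 h the microglial sum stood at 0.644 and 0.727 times the control. There the endothelial sum stood at 1.59 and 0.945 times and the oligodendrocyte sum at 1.18 and 1.52 times the control. Of the microglial markers, P2ry12 was at 0.436 and 0.558, Tmem119 at 0.732 and 0.969, Cx3cr1 at 0.778 and 0.754 and Aif1 at 0.989 and 0.945 times the control. Of the endothelial markers, Pecam1 was at 1.75 and 1.16, Flt1 at 1.75 and 0.959 and Cldn5 at 0.975 and 0.707 times the control. In bulk tissue, fewer cells of a type and less RNA per cell cannot be told apart. The part of these differences in the values below was not tested.

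To compare genes with each other, normalized CPM were divided by the length of all exons. By the mean over libraries the order was Gria1 with 149 normalized CPM per kb, Cnih2 with 105, Gria2 with 73.1, Cnih3 with 26.2, Gria3 with 20.3, Gria4 with 13.8, Cacng8 with 12.3, Cacng3 with 10.4, Cacng2 with 4.70 and Cacng4 with 2.28. Gria1, Cnih2 and Gria2 ranked above 99.3%, 98.7% and 97.8% of the expressed genes, and Cacng4 above 43.3%. Between single libraries the levels of neighbours overlapped for Cnih3 and Gria3, for Gria4 and Cacng8 and for Cacng8 and Cacng3. Per kb of the longest coding transcript, Gria2 (109.6) stood above Cnih2 (107.0) and Gria3 (38.5) above Cnih3 (27.1), and the order was otherwise the same. In the control, Gria1 made up 57.5% and Gria2 29.4% of the 4 subunits per kb of all exons, 49.1% and 34.6% per kb of the longest coding transcript, and 38.0% and 50.0% of the counts without division by length, where their order turned.

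**Figure D1:**
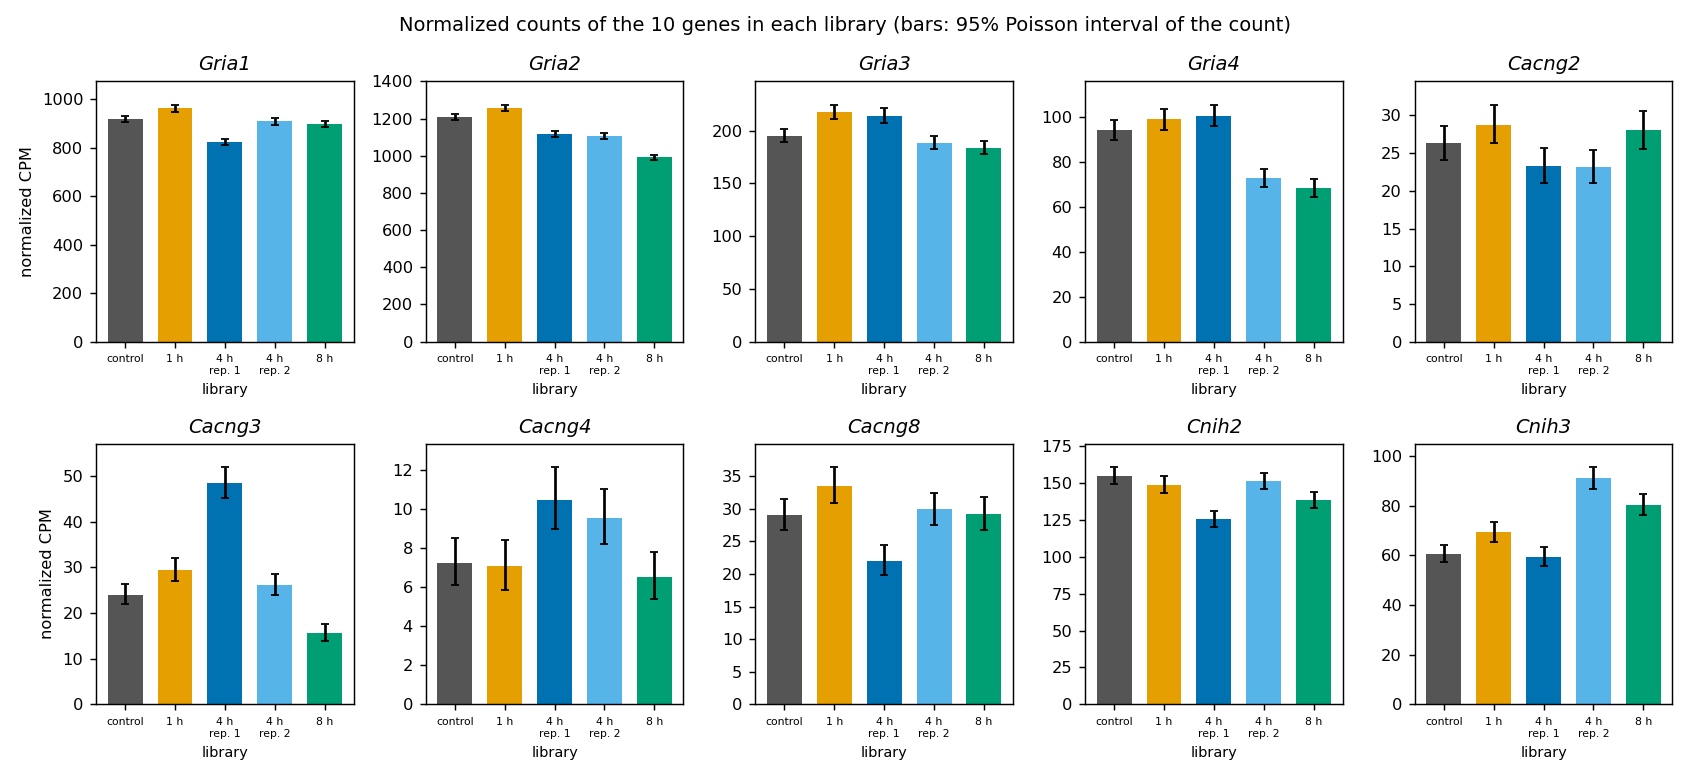
Normalized CPM (vertical axis, from 0, with its own scale in each panel) of the 10 genes in each of the 5 libraries (horizontal axis), with 95% Poisson intervals of the counts as bars. Most genes stay near the control, while Cacng3 reaches 48.5 in replicate 1 after 4 h and 15.7 after 8 h.

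The first question was whether any of the 10 genes differed from the control after seizures. With edgeR's quasi-likelihood test and Benjamini-Hochberg adjustment over 19768 genes, 0 of 10 were called at an adjusted p under 0.05 after 1 h, 4 h or 8 h. The test called 0% of all genes at 1 h, 0.00506% after 4 h and 0% after 8 h, so its calls do not separate the 10 genes from the rest. At an unadjusted p under 0.05 it counted 0 of 10 at each time point, where it counted 2.42%, 11.6% and 4.51% of all genes. DESeq2 and limma-voom also called 0 of the 10 at each time point, and over all genes they called 56, 238 and 33 and 0, 0 and 0. Treating the 4 kainic acid libraries as 1 group, with 3 residual degrees of freedom, edgeR called 0 of the 10 and 0 of all genes.

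The fitted log2 fold changes, below also called log2 differences and computed with a prior count of 2, ran from -0.06 to 0.29 at 1 h, with a median of 0.10 and 8 of 10 above 0. At 4 h they ran from -0.18 to 0.63 with a median of -0.10 and 4 above 0, and at 8 h from -0.61 to 0.40 with a median of -0.12 and 3 above 0. The medians over all genes were -0.01, 0.01 and 0.01, and the quartiles of all genes were -0.20 and 0.18, -0.29 and 0.36, and -0.23 and 0.27. The 3 comparisons share the control library.

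**Figure D2:**
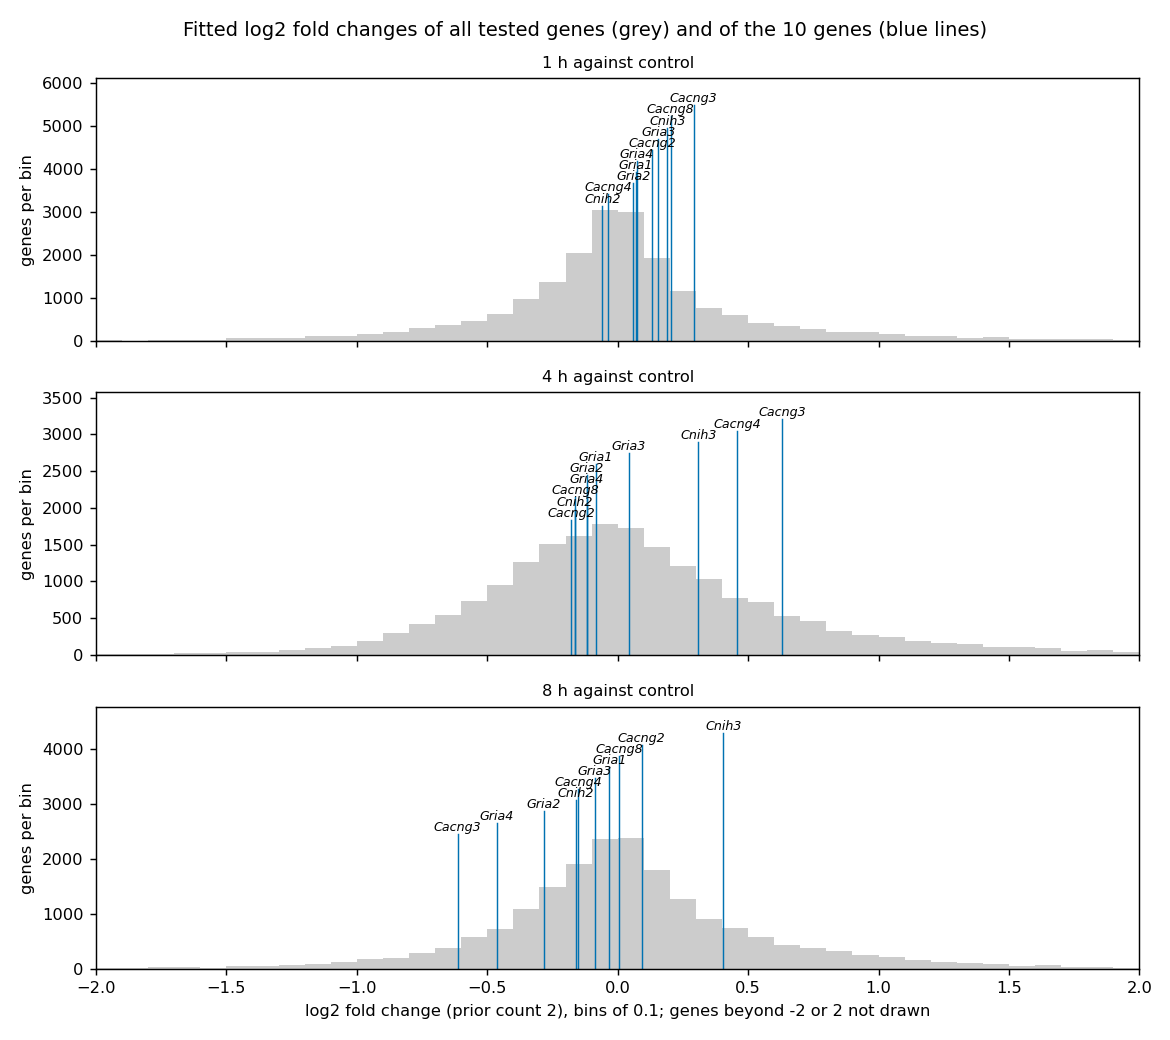
Number of genes per bin of 0.1 in log2 fold change against the control (grey, 19768 genes tested, with those beyond -2 or 2 not drawn) at 1, 4 and 8 h, and the 10 genes as blue lines. All 10 lie between -0.06 and 0.29 at 1 h, and Cacng3 is at the upper end at 4 h (0.63) and at the lower end at 8 h (-0.61).

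As a description of size, no member differed 1.5-fold or more from the control at 1 h, where 10.9% of all genes were that much higher and 9.2% lower. At 4 h no member did so in both libraries, against 10.1% of all genes higher and 6.28% lower. In replicate 1 alone, 1 member (Cacng3) was past 1.5-fold and higher and none was lower, where 21.1% and 16.8% of all genes were. In replicate 2 alone none was past it in either direction, against 13.8% higher and 10.7% lower. At 8 h, 1 member (Cacng3) was lower and none was higher, against 8.94% and 14.1% of all genes. Both 4 h libraries lay above the control for Cacng3 and Cacng4 (38.1% of all genes) and below it for Gria1, Gria2, Cacng2 and Cnih2 (38.3%). Only Cnih2 of the 10 lay below the control in all 4 kainic acid libraries (20.6% of all genes), and none lay above it in all 4 (20.6%). Counting intervals that excluded 1 on opposite sides at 2 time points, in every library of both, were found for 4 of the 10 (Gria1, Gria2, Gria3 and Cacng3), against 6.62% of all genes and 14% of the 7098 genes with at least as many control counts as Cacng3. Such intervals narrow as counts rise and leave out the spread between libraries. The 14% is not a share matched to the members, since Gria1 and Gria2 had 18251 and 24021 control counts, Cacng3 479 and Cacng4 144.

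Gria1 encodes GluA1, the subunit whose phosphorylation and insertion accompany long-term potentiation. It had 917 normalized CPM in the control, 962 after 1 h, 823 and 908 in replicates 1 and 2 after 4 h, and 897 after 8 h. The highest library had 1.17 times the lowest, a smaller range than in all but 6.69% of genes. That share, like those given for other genes below, is over all genes tested and is not matched for counts. Gria1 had 13851 to 18251 counts per library. Fitted log2 differences were 0.07, -0.08 and -0.03 for 1, 4 and 8 h, with SE of 0.19, 0.17 and 0.19 and edgeR adjusted p = 1, 0.871 and 1.00.

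Gria2, which encodes GluA2, had the most counts of the 10 genes. It had 1207 normalized CPM in the control, 1258 after 1 h, 1119 and 1106 after 4 h and 991 after 8 h. The 4 h libraries lay close together, at a mean of 1113 ± 9.22 (SD, n = 2), and both were below the control and above the 8 h library. The ratio to the control at 8 h was 0.821 (95% counting interval 0.805 to 0.837), and the fitted log2 difference -0.28 (SE 0.18, edgeR adjusted p = 1.00).

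Gria3 encodes GluA3, which forms receptors with GluA2. It had 195, 218, 214, 189 and 184 normalized CPM in the control, at 1 h, in replicates 1 and 2 at 4 h and at 8 h. Its 4 h libraries lay on both sides of the control. The ratio to the control was 1.11 (1.06 to 1.16) at 1 h and 0.941 (0.898 to 0.986) at 8 h.

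Gria4 encodes GluA4, which in the adult hippocampus is found mainly in interneurons. It had 94.0 normalized CPM in the control, 98.8 after 1 h, 100.4 and 72.7 after 4 h and 68.1 after 8 h. Replicate 1 at 4 h thus lay with the control and 1 h, and replicate 2 with 8 h. Their ratio of 1.38 (1.28 to 1.48) was wider than that of 75.6% of genes. After 8 h the fitted log2 difference stood at -0.46 (SE 0.28, edgeR adjusted p = 1.00), and the ratio to the control there was 0.725 (0.674 to 0.780). The 6 interneuron markers, summed and led by Gad1, stood at 843 and 694 at 4 h and 512 in the control, and at 8 h the single markers ranged from 0.791 (Sst) to 1.16 (Vip) times the control.

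Within a library, ratios between genes do not depend on scaling. The counts of Gria1 over those of Gria2 were 0.760 (95% interval 0.745 to 0.775) in the control, 0.765 after 1 h, 0.735 and 0.821 after 4 h and 0.905 (0.885 to 0.924) after 8 h. The 8 h library had the highest ratio, and the interval of that ratio did not overlap those of the other 4. The gap between 8 h and the control was wider than that between the 4 h replicates, and the difference, which rests on 1 library at 8 h, was not tested. Gria3 over Gria2 ranged from 0.162 in the control to 0.191 in replicate 1 at 4 h, and Gria4 over Gria2 from 0.0657 in replicate 2 to 0.0897 in replicate 1. The 4 subunits together had 1.05 times the control's normalized CPM at 1 h, 0.935 and 0.943 after 4 h and 0.887 after 8 h. Per kb of exon, Gria1 made up 57.5% of them in the control, 57.3% at 1 h, 55.4% and 59.6% after 4 h and 61.4% after 8 h, and Gria2 29.4%, 29.1%, 29.3%, 28.2% and 26.4%.

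**Figure D3:**
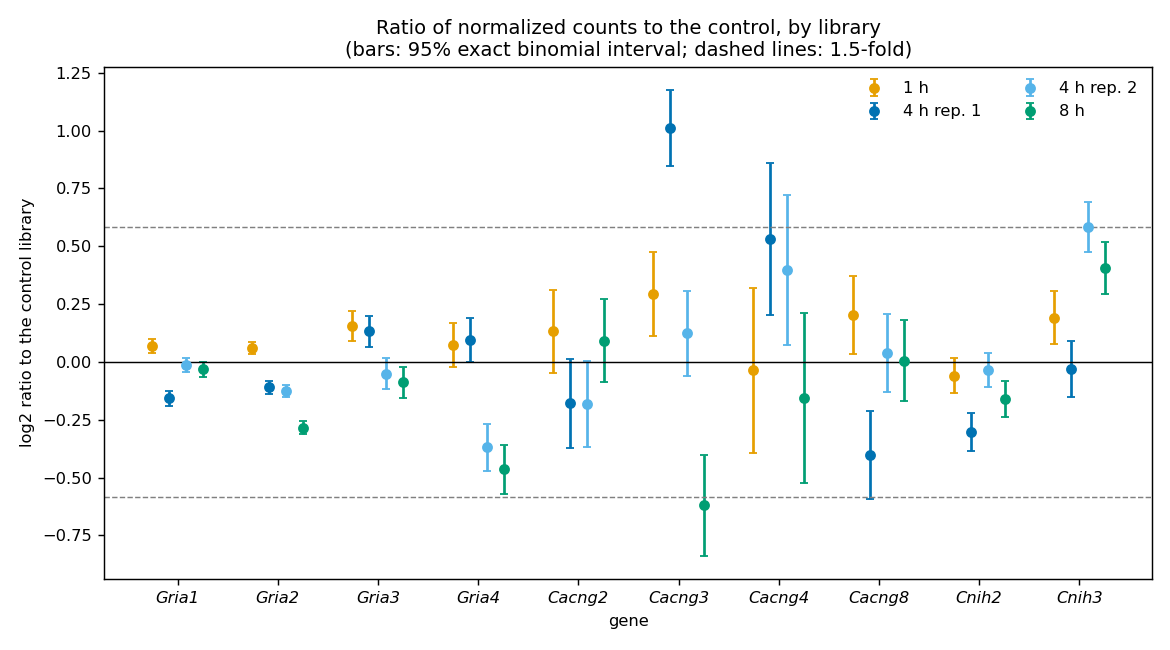
Log2 ratio of normalized counts to the control library (vertical axis) for the 10 genes (horizontal axis) at 1 h, in both libraries at 4 h and at 8 h, with 95% exact binomial intervals as bars and dashed lines at 1.5-fold. The points of Cacng3 spread from 0.652 to 2.01 times the control, and the ratio between the 4 h libraries is widest for Cacng3 (1.85), Cnih3 (0.653), Gria4 (1.38) and Cacng8 (0.737), while the intervals of the pair also do not overlap for Cnih2, Gria1 and Gria3.

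Of the TARPs, Cacng2 encodes γ-2, or stargazin, the TARP in which the family was discovered and which is needed for AMPA receptors in cerebellar granule cells. It had 26.3 normalized CPM in the control, 28.8 after 1 h, 23.2 in each 4 h library and 28.0 at 8 h. The intervals of all 4 ratios to the control included 1. After 4 h the fitted log2 difference stood at -0.18 (SE 0.21, edgeR adjusted p = 0.767).

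Cacng3 encodes γ-3, a close relative of γ-2. It had 24.1 normalized CPM in the control (95% interval 22.0 to 26.3, 479 counts), 29.5 after 1 h, 48.5 in replicate 1 and 26.2 in replicate 2 after 4 h, and 15.7 after 8 h (13.9 to 17.7, 275 counts). Replicate 1 at 4 h was the highest and the 8 h library the lowest of the 5, and replicate 2 lay between the control and 1 h. The highest library had 3.09 times the lowest, the widest range among the 10 genes, with a smaller range in 83.9% of genes and a median of 1.67 over all genes. The ratio of replicate 1 to replicate 2 was 1.85 (1.65 to 2.07), wider than in 92.3% of genes. Against the control the ratio was 1.22 (1.08 to 1.39) at 1 h, 2.01 and 1.09 after 4 h and 0.652 (0.560 to 0.758) after 8 h. After 4 h the fitted log2 difference stood at 0.63 (SE 0.40, edgeR adjusted p = 0.584), and it was 0.13 without replicate 1 and 1.01 without replicate 2.

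The later time points were also compared with each other. Between 4 h and 1 h and between 8 h and 4 h, edgeR called 0 of the 10 genes at an adjusted p under 0.05, against 0.00506% and 0% of all genes. At an unadjusted p under 0.05 it counted 0 and 1 of the 10, against 7.94% and 8.73% of all genes, and DESeq2 and limma-voom called 0 of the 10 in both, where over all genes they called 109 and 129 and 0 and 0. The 1 gene was Cacng3, which was lower at 8 h than at 4 h by a log2 fold change of -1.24 (SE 0.42, adjusted p = 0.538 from edgeR). Without replicate 1 this value was -0.74 and without replicate 2 it was -1.62. Replicate 1 is the library with 27.3 summed normalized CPM of choroid plexus markers and the highest sums of interneuron markers, led by Gad1, and of striatal and thalamic markers, led by Prkcd. Activity genes also parted the 4 h libraries, with Fos at 519 and 70.4 and Npas4 at 130 and 4.92 in replicates 1 and 2. The part of these differences in the values of Cacng3 was not tested.

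Cacng4 encodes γ-4 and had the lowest level of the 10 genes, with 114 to 180 counts per library. It had 7.24 normalized CPM in the control, 7.05 after 1 h, 10.5 and 9.52 after 4 h and 6.50 after 8 h. The 4 h libraries were the highest, at a mean of 9.99 ± 0.660 (SD, n = 2), and both of their ratios to the control, 1.44 (1.15 to 1.81) and 1.32 (1.05 to 1.65), had intervals above 1. After 4 h the fitted log2 difference stood at 0.46 (SE 0.30, edgeR adjusted p = 0.597).

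Cacng8 encodes γ-8. It had 29.1 normalized CPM in the control, 33.5 after 1 h, 22.0 and 29.9 after 4 h and 29.2 after 8 h. Replicate 1 at 4 h was the lowest library, with 0.737 (0.645 to 0.842) of replicate 2, and the control, replicate 2 and 8 h all lay between 29.1 and 29.9. Fitted log2 differences were -0.16 (SE 0.26) and 0.01 (SE 0.31) for 4 and 8 h, with edgeR adjusted p = 0.838 and 1.00.

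The makeup of the TARP transcripts followed from these values. Per kb of exon, Cacng8 made up 44.5% of the 4 TARPs in the control, 44.5% at 1 h, 27.6% and 43.9% after 4 h and 49.8% after 8 h. Cacng3 made up 31.1%, 33.1%, 51.3%, 32.5% and 22.6%. Cacng8 was thus the most abundant TARP in 4 of 5 libraries and Cacng3 in replicate 1 at 4 h. The counts of Cacng3 over those of Cacng8 were 0.827 (0.731 to 0.935) in the control, 0.879 after 1 h, 2.20 (1.94 to 2.49) and 0.878 after 4 h and 0.537 (0.462 to 0.623) after 8 h.

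**Figure D4:**
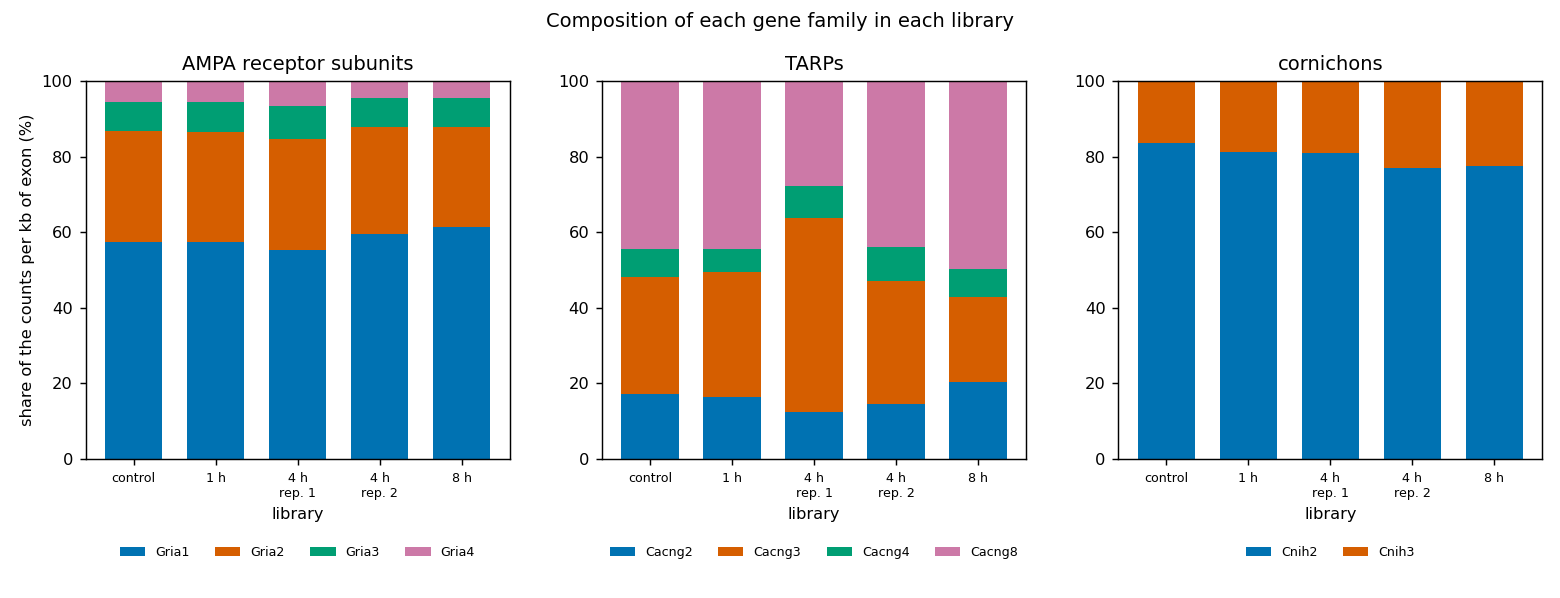
Share (%, vertical axis from 0 to 100) of each gene in the counts per kb of exon of its family in each library (horizontal axis). In the TARPs, Cacng3 takes 51.3% in replicate 1 after 4 h and 22.6% after 8 h, and Cnih3 takes 16.3% of the cornichons in the control and 22.4% at 8 h.

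**Figure D5:**
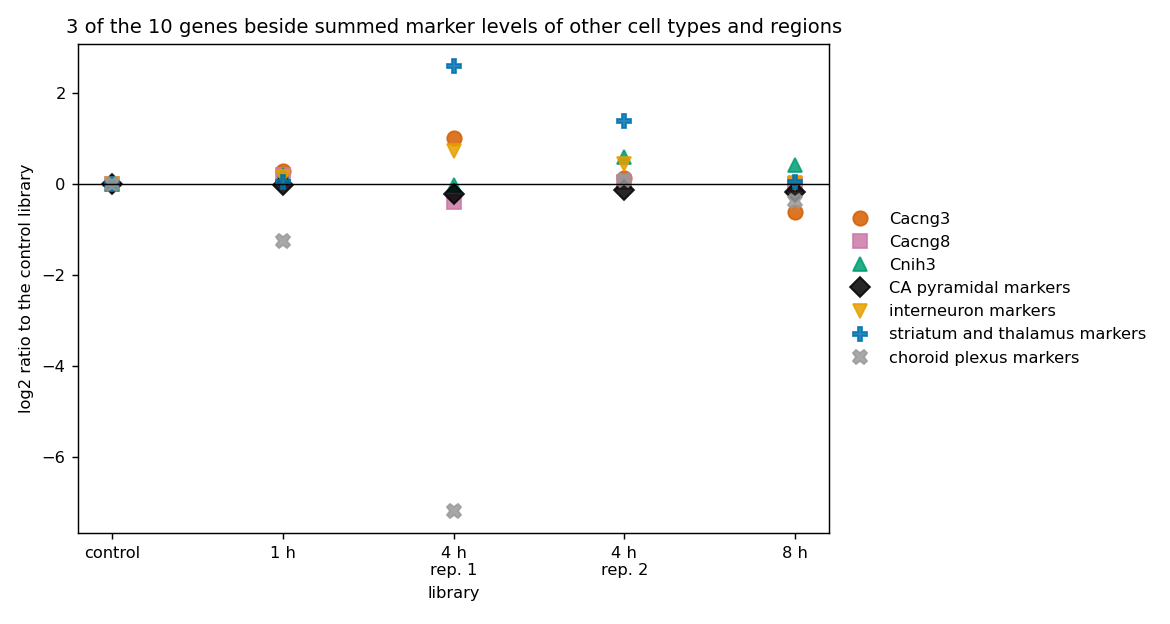
Log2 ratio to the control library (vertical axis) of normalized CPM of Cacng3, Cacng8 and Cnih3 and of the summed markers of 4 cell types or regions, in each library (horizontal axis, control at 0 by construction). In replicate 1 at 4 h the choroid plexus markers sum to 27.3 against 3946 in the control, and Cacng3 and the sums of interneuron markers, led by Gad1, and of striatum and thalamus markers, led by Prkcd, lie at their highest.

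The cornichons Cnih2 and Cnih3 bind the receptor alongside TARPs and slow its deactivation. Cnih2 had 155 normalized CPM in the control, 149 after 1 h, 125.5 and 151 after 4 h and 138 after 8 h. The control was the highest library. Its log2 fold changes were -0.06 (SE 0.22), -0.16 (SE 0.19) and -0.16 (SE 0.22) at 1, 4 and 8 h, with adjusted p = 1, 0.757 and 1.00 from edgeR.

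Cnih3 had 60.7 normalized CPM in the control, 69.4 after 1 h, 59.5 and 91.0 after 4 h and 80.4 after 8 h. Replicate 2 at 4 h was the highest library and replicate 1 the lowest, with a ratio of 0.653 (0.604 to 0.707) between them, so the 4 h pair enclosed the values of the other 3 libraries. At 8 h the ratio to the control was 1.32 (1.23 to 1.43), the largest of the 10 genes at that time, with a log2 fold change of 0.40 (SE 0.33, adjusted p = 1.00 from edgeR). The counts of Cnih3 over those of Cnih2 were 0.392 (0.367 to 0.419) in the control, 0.467 after 1 h, 0.474 and 0.603 after 4 h and 0.581 (0.544 to 0.621) after 8 h. They were higher than in the control in all 4 kainic acid libraries, which are all set against the same control library. The gap between the 4 h libraries was wider than that between the control and 1 h. The difference from the control was not tested.

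RefSeq promoters (GRCm38.p6, from 250 bases before to 50 after the start) matched 7 of the 10 genes. The windows of Cacng2, Cacng3 and Cacng8 overlap the GENCODE M21 models of these genes, so their starts differ between the annotations and these windows may not be the promoters in use. Both strands were searched for 7 short motifs, and no matches overlapped. None of the 7 windows held the cyclic AMP response element TGACGTCA, found in 1.79% of 32817 promoters, or the AP-1 site TGANTCA, found in 7.81%. None held the TATA box TATAAA (13.6% of promoters) or the REST half-site TTCAGCACC (0.372%) either. The EGR1 site GCGNGGGCG, found in 5.56%, was in that of Gria4. The GC box GGGCGG, found in 35.6%, was in those of Cnih2 and Cnih3, and the E-box CACGTG, found in 7.15%, was in that of Cnih3. A match is a run of letters and not evidence of binding. The 250 bases before the start of Cnih3, at chr1:181352378-181352627 on the plus strand, are shown because it is the gene with the largest ratio at 8 h, with the E-box and the GC box (read on the opposite strand) in capitals.
Cnih3 promoter: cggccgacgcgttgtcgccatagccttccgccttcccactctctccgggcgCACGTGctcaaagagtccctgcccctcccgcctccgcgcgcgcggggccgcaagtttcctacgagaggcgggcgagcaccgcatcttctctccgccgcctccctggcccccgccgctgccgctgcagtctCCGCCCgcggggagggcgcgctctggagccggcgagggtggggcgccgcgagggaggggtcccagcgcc

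Other genes of the AMPA receptor pathway were examined as 4 lists: 12 other auxiliary subunits, 6 factors of assembly in the endoplasmic reticulum, 16 scaffold and trafficking proteins and 3 genes of RNA editing. No gene of the 4 lists was called at an adjusted p under 0.05 at any time point by edgeR. At an unadjusted p under 0.05 the test counted, at 4 h, 3 of 12 other auxiliary subunits, 1 of 6 assembly factors, 3 of 16 scaffold and trafficking proteins and 2 of 3 editing genes, where it counted 11.6% of all genes. At 1 h it counted 1 of the 37 genes of these lists, against 2.42% of all genes, and at 8 h 4, against 4.51%.

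Among the other auxiliary subunits, Nrn1, or neuritin, a small activity-regulated protein found in AMPA receptor complexes, had 149 normalized CPM in the control, 321 after 1 h, 874 and 453 after 4 h and 307 after 8 h. All 4 kainic acid libraries lay more than 2-fold above the control, with a log2 fold change of 2.16 (SE 0.43, adjusted p = 0.263 from edgeR) at 4 h. Shisa7 had 49.5, 42.2, 24.9, 29.5 and 49.6, and Prrt1, also called SynDIG4, had 14.5, 10.1, 6.41, 6.93 and 11.3 normalized CPM in the same order of libraries. For both genes the 4 h libraries were the lowest, with log2 fold changes of -0.86 (SE 0.21, adjusted p = 0.310) and -1.10 (SE 0.27, adjusted p = 0.316) from edgeR. Syndig1, which promotes synapse differentiation, had 25.9 in the control, 31.0 after 1 h, 27.5 and 36.9 after 4 h and 52.7 after 8 h, the highest library.

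Of the assembly factors, Cpt1c, which binds AMPA receptors in the endoplasmic reticulum, had 109 normalized CPM in the control, 102 after 1 h, 71.4 and 81.1 after 4 h and 87.6 after 8 h. The 4 h libraries were the lowest, with a fitted log2 difference of -0.51 (SE 0.17, edgeR adjusted p = 0.388). Abhd12, a serine hydrolase, had 226 in the control and 319 at 8 h, the highest library.

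Of the scaffold and trafficking proteins, Grasp, or tamalin, known chiefly as a partner of metabotropic glutamate receptors, had 24.3 normalized CPM in the control, 74.0 after 1 h, 76.3 and 95.8 after 4 h and 53.1 after 8 h. All 4 kainic acid libraries lay more than 2-fold above the control, with log2 fold changes of 1.60, 1.82 and 1.12 at 1, 4 and 8 h (adjusted p = 0.929, 0.242 and 0.882 from edgeR). Epb41l1, or protein 4.1N, which binds GluA1, had 438 in the control, 471 after 1 h, 628 and 559 after 4 h and 566 after 8 h. Sdcbp, or syntenin, had 221 in the control, 278 after 1 h, 348 and 287 after 4 h and 236 after 8 h. Akap5, which anchors protein kinase A and calcineurin near GluA1, had 127 in the control, 133 after 1 h, 101 and 112 after 4 h and 80.9 after 8 h, the lowest library.

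Adarb1 encodes ADAR2, the deaminase that edits the Q/R site of Gria2 shown above. It had 185 normalized CPM in the control, 191 after 1 h, 428 and 263 after 4 h and 193 after 8 h. Both 4 h libraries lay above the other 3, with ratios to the control of 2.32 and 1.43 and a log2 fold change of 0.90 (SE 0.31, adjusted p = 0.395 from edgeR). Adarb2, a relative without known editing activity, had 52.7, 60.5, 140, 75.5 and 42.4 in the same order, also highest in the 4 h libraries. Replicate 1, in which both genes were highest, is the library with the low choroid plexus sum and the high interneuron sum, led by Gad1. The sum of striatum and thalamus markers, led by Prkcd, stood at 5.99 and 2.59 times the control in replicates 1 and 2. The astrocyte sum stood at 1.79 and 1.59 times and the endothelial sum at 1.59 and 0.945 times. Activity genes parted the 4 h libraries too, with Fos at 519 and 70.4 and Npas4 at 130 and 4.92 normalized CPM. The part of any of these differences in the values of Adarb1 and Adarb2 was not tested. Adar had a log2 fold change of 0.19 at 4 h.

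Beside the other ionotropic glutamate receptors, the 10 genes showed log2 ratios to the control with medians of 0.10 after 1 h, -0.07 and -0.03 after 4 h and -0.12 after 8 h. Over the 6 expressed NMDA receptor subunits the medians were 0.04, -0.01, -0.03 and -0.04. Over the 7 kainate receptor subunits and NETO proteins they were 0.01, -0.28, -0.29 and -0.10. No test of the difference between these families was made.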

How the data were processed

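Total RNA of mouse hippocampi was sequenced in 5 libraries of 4 groups. Per the submitters' processing notes, reads were aligned with STAR 2.5.1b to GRCm38.p4 and counted with HTSeq, and the authors deposited whole-number counts per gene without normalization. The kit keeps strand. The strand setting of the counting and its annotation release were not given in the sources used here. Reads on no gene were left out. They made up 24.7% of the deposited reads in the control, 29.0% at 1 h, 33.1% and 25.3% in replicates 1 and 2 at 4 h and 30.9% at 8 h.

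The count test was edgeR 4.0.16 in R 4.3.3 (filterByExpr, 19768 genes kept, TMM factors 0.924 to 1.06, quasi-likelihood test over all 5 libraries, Benjamini-Hochberg threshold 0.05, prior count 2). The fit had 1 residual degree of freedom, from the 4 h pair, and the other libraries were assumed to vary like it. The biological coefficient of variation was 0.238. Standard errors were derived from the F statistic. Intervals are exact (Poisson for counts, binomial for ratios). The scripts were tested on simulated data. Of the 55385 identifiers, 55144 were found in GENCODE M21. Figures used Python 3.11.15 and matplotlib 3.10.9.

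All 10 members are named in full, with pathway genes past an unadjusted p of 0.05, the 5 activity genes, and marker lists whose sums differ over 1.5 times between libraries. Members and lists were chosen with earlier results of these data known, and the NMDA and kainate receptor lists after the files had been read. Alternatives were DESeq2 1.42.0, limma-voom (limma 3.58.1), scaling by median-of-ratios factors, by library size alone and by TMM leaving out mitochondrial and the 50 most abundant genes, assumed coefficients of variation of 0.2 and 0.4, no filter, at least 10 counts in every library, a prior count of 0.125, folds of 1.25 and 2, other lengths, and each 4 h library left out.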

Additional observations from a re-analysis of the deposited data

Results flagged for a closer look

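In 4 of the 10 genes the ratio to the control lay on opposite sides of 1 at different time points, with every library of both time points on its side and a 95% counting interval that excluded 1, against 6.62% of all genes and 14% of those with at least as many control counts as Cacng3. Neither share is matched to the counts of the members, and such intervals narrow as counts rise. These differences between time points were not tested, and the control, 1 h and 8 h were 1 library each. Gria1 had 1.049 times the control at 1 h and 0.9778 times at 8 h. Gria2 had 1.042 times the control at 1 h, 0.9272 and 0.9164 times in replicates 1 and 2 at 4 h and 0.8212 times at 8 h. Gria3 had 1.114 times the control at 1 h and 0.941 times at 8 h. Cacng3 had 1.225 times the control at 1 h and 0.6518 times at 8 h, and 2.01 and 1.09 times in replicates 1 and 2 at 4 h. Cacng8 had 1.15 times the control at 1 h and 0.757 times in replicate 1 at 4 h, both with intervals that excluded 1, but 1.027 times in replicate 2, where the interval included 1. For Gria1 and Gria2 the value at 1 h moved below the control when counts were scaled by library size alone. At 8 h the log2 difference of Gria1 moved closer to the control under some settings. It was -0.032 in the main fit, -0.014 by library size alone and -0.0079 with at least 10 counts in every library.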

How the results depend on the processing

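The number of the 10 genes called stayed at 0 against the control at 1, 4 and 8 h under every alternative run. Between 8 h and 4 h it was 1 (Cacng3) without a filter and 1 when the coefficient of variation was set to 0.2, where its log2 fold change was -1.24 with adjusted p = 0.000796 and 0.0397 (edgeR), while over all alternatives the adjusted p ranged from 0.000796 to 1. These settings called 957 of 32732 and 660 of 19768 genes in all. At an unadjusted p under 0.05, edgeR without a filter counted 1 member (Cacng3) at 4 h and 2 (Gria4 and Cacng3) at 8 h. With the coefficient of variation set to 0.4, the unadjusted count between 8 h and 4 h was 0. No share of all genes was computed for these unadjusted counts, so they do not set the members apart from other genes. At an adjusted p under 0.05, edgeR without a filter called 1300 of 32732 genes at 4 h and 279 at 8 h, with 0 members at either time. With the lower fold as the bound in place of 1.5, the members past it were 1 higher at 4 h, 1 higher at 8 h and 2 lower at 8 h, against 18%, 23.2% and 19.1% of all genes, and with a fold of 2 they were 0 lower at 8 h, against 3.37%. Leaving out 1 library at 4 h (added after seeing the data) gave 0 to 1 members past 1.5-fold and higher there. Library size alone moved the median log2 fold change of all genes to -0.08 at 1 h and -0.11 at 4 h, and turned Gria1 (-0.0043), Gria2 (-0.013) and Gria4 (-0.00033) at 1 h and Gria3 (-0.084) at 4 h. Without a filter Cacng8 was at -0.0083 at 8 h. With a 4 h library left out, log2 fold changes at 4 h ranged from -0.048 to 0.14 for Gria3, -0.37 to 0.10 for Gria4, -0.40 to 0.042 for Cacng8, -0.027 to 0.59 for Cnih3 and 0.13 to 1.01 for Cacng3, whose value against 1 h ranged from -0.17 to 0.72. The cause of these changes was not tested, except that each such value rests on 1 library at 4 h. Of 344 alternative values of single genes, 288 came with a test, of which 281 kept direction and side of the threshold, and 56 were values with no test, of which 51 kept direction. No paired analysis was possible because only the 4 h libraries carry replicate numbers. Genes such as Cacng4, with 114 to 180 counts per library, are limited by depth as well.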
